A study of Homo sapiens with 24 samples.

Results

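Kinesins are microtubule motor proteins, most of them encoded by KIF and KIFC genes. Their transcripts were examined here in HEK293T cells, a human embryonic kidney line, in libraries labelled wild type or knockout for the histone methyltransferase SETD2. The genes were taken by symbol, as KIF followed by a number and optional letter or as KIFC followed by a number, which gave 43 of the 58884 genes listed in both deposited tables. By function, 15 were grouped as mitotic kinesins, 17 as transport kinesins and 11 as ciliary and other kinesins. Of the 43, 38 passed the filter on low values in the second table, and 37 passed it in the first. KIF2B, KIF4B, KIF19, KIF26B and KIF28P passed in neither table, and KIF25 did not pass in the first.

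Kinesins hydrolyse ATP to walk along microtubules, most of them towards the plus end, while those of the KIFC group walk towards the minus end. Mitotic kinesins build the bipolar spindle, move chromosomes and complete cytokinesis, and the transcripts of many of them accumulate in the G2 and M phases of the cell cycle. Transport kinesins carry vesicles, mitochondria and ciliary components through the cytoplasm, and several of them, such as KIF1A, KIF5A and KIF5C, are best known from neurons.

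RNA was sequenced from 10 libraries, 2 in each group, and the values are TPM, in which the reads of a gene are divided by its transcript length and expressed relative to the total of the library. The first table held HEK293T cells that were wild type (WT) and cells labelled as a knockout of the SETD2 gene (KO). The second table held KO cells that were not treated, KO cells transfected with full-length SETD2 (SETD2 FL), and KO cells transfected with the C-terminal segment of SETD2 covering residues 1404 to 2564 (SETD2 C), with RNA taken 72 h after transfection. The constructs carried a tag and were driven by a CMV promoter, so the cells labelled SETD2 FL and SETD2 C differ from those labelled KO both in SETD2 and in having been transfected, and these cannot be told apart. Every group of the second table was labelled as knockout cells. The labels do not say whether libraries of one group came from separate cultures, so the p-values measure only the spread between these libraries, and whether the KO line is 1 clone is not given in the sources used here.

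In the first table SETD2 TPM was 12.6 and 14.8 for WT and 16.2 and 16.3 for KO, so libraries labelled KO did not hold less of the targeted transcript, and KO is used below as the label gives it. The paper describes both SETD2 alleles of the KO cells as disrupted. It reports that western blots of KO cells showed no H3K36me3, the histone mark made by SETD2. The second table gave 11.99 and 12.15 TPM for KO, 439 and 422 for SETD2 FL, and 1329 and 1264 for SETD2 C. The paper reports no significant difference in SETD2 transcript level between SETD2 FL and SETD2 C. TPM depends on the transcript length assigned to the reads, and SETD2 C covers only part of SETD2. These TPM values may therefore not be a like measure of the constructs or of what the paper compared. Depth is unknown for TPM values. Mitochondrially encoded genes took 2.93 to 3.37% of TPM with SETD2 C, against 6.23 to 7.04% in KO and 7.79 to 10.9% with SETD2 FL. The 5 HEK293T markers NEFM, NEFL, VIM, KRT8 and KRT18 were present in every library, and the summed TPM of 3 leukocyte markers stayed at or below 0.17. Of 3 keratinocyte markers, KRT5 and KRT14 stayed at or below 0.12 TPM, while KRT10 had 26.06 to 32.6 in the first table and 41.6 to 42.3, 39.95 to 42.95 and 48.8 to 52.3 in KO, SETD2 FL and SETD2 C, and it passed in none of the comparisons. The HEK293T marker sum was 1550 to 1628 with SETD2 C, 1084 to 1086 in KO and 914 to 1042 with SETD2 FL, and the sum of 4 fibroblast markers was 12.1 to 14.3, 7.23 to 7.31 and 7.75 to 9.97 in the same order. The part of these differences in the kinesin results was not tested.

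Many genes of the G2 and M phases carry short promoter elements, namely the cell cycle genes homology region, written TTTGAA or TTTAAA, and the CCAAT box. RefSeq promoters on GRCh38.p14, spanning 250 bases before and 50 after the start, were found for 34 of the 43 kinesin genes, and both strands were searched. For 7 of them the table holds several starts, so a gene was counted when any listed start matched, and the background was counted by gene in the same way. A TTTGAA or TTTAAA lay at a start of 12 of 15 mitotic kinesin genes (80%), 2 of 12 transport kinesin genes (16.7%) and 0 of 7 of the others, against 27.9% of the 27305 genes of the table. CCAAT lay at a start of 11 of 15 mitotic kinesin genes (73.3%), 4 of 12 transport kinesin genes and 3 of 7 of the others, against 39.7% of all genes. Both elements were found for 10 of 15 mitotic kinesin genes (66.7%) and for 11.2% of all genes. KIF4A and KIF4B are near-identical copies and were both counted. In 7 of these 10 genes, namely KIF11, KIF14, KIF18A, KIF18B, KIF20A, KIF4A and KIF4B, the homology region began 23 to 35 bases after the start of the nearest CCAAT. The distance was 9 bases in KIF23, 50 in KIFC1 and 122 in KIF20B, and distances were not counted over all genes.

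The 140 bases before the start are shown for KIF20A and KIFC1, whose transcripts were higher with SETD2 C, for KIF20B, which was lower, and for KIF11 and KIF4A, which did not pass the test. They lie on the plus strand at chr5:138178972-138179111, chr6:33391683-33391822, chr10:89701450-89701589, chr10:92592990-92593129 and chrX:70289964-70290103 in that order. No exon of GENCODE 44 overlaps these windows, and those of KIF20A and KIF11 lie in introns of longer transcripts of the same genes. Each is written 5′ to 3′ with the CCAAT boxes and the homology regions, read on either strand, in capitals.
KIF20A: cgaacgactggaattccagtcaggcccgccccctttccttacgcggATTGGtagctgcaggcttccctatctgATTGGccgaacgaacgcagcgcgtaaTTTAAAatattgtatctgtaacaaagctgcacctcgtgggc
KIFC1: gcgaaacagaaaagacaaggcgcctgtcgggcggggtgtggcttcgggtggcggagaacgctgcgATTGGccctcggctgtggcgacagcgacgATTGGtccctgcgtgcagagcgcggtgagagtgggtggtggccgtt
KIF20B: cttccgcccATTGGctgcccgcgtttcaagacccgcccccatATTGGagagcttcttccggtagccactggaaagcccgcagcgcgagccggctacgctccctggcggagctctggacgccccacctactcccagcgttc
KIF11: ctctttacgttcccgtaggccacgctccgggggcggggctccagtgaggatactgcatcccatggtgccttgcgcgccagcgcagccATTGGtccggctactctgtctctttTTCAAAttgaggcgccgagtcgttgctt
KIF4A: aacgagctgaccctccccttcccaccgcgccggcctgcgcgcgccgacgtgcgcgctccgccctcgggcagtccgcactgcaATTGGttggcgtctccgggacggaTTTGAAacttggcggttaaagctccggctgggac
In KIFC1 and KIF20B the homology regions lie just after the start and are not printed. The promoters shown were chosen with the calls known, and they include transcripts that were higher, lower or not past the test. Calls were not compared between genes with and without the elements, and a match of letters is a description only.

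Mitotic kinesins made up most of the kinesin message in these cells, with 64.5 to 68.6% of the summed kinesin TPM in each of the 10 libraries. KIF22, a chromokinesin that pushes chromosome arms away from the poles, had the highest level, with TPM of 106 and 107 in KO, 99.5 and 103 for SETD2 FL and 119 and 116 for SETD2 C. KIF2B, a testis-enriched relative of KIF2A and KIF2C, was listed at 0 in all 10 libraries. In the second table KIF14 had the lowest level of the mitotic kinesins tested, as the plot of levels by role shows.

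**Figure D1:**
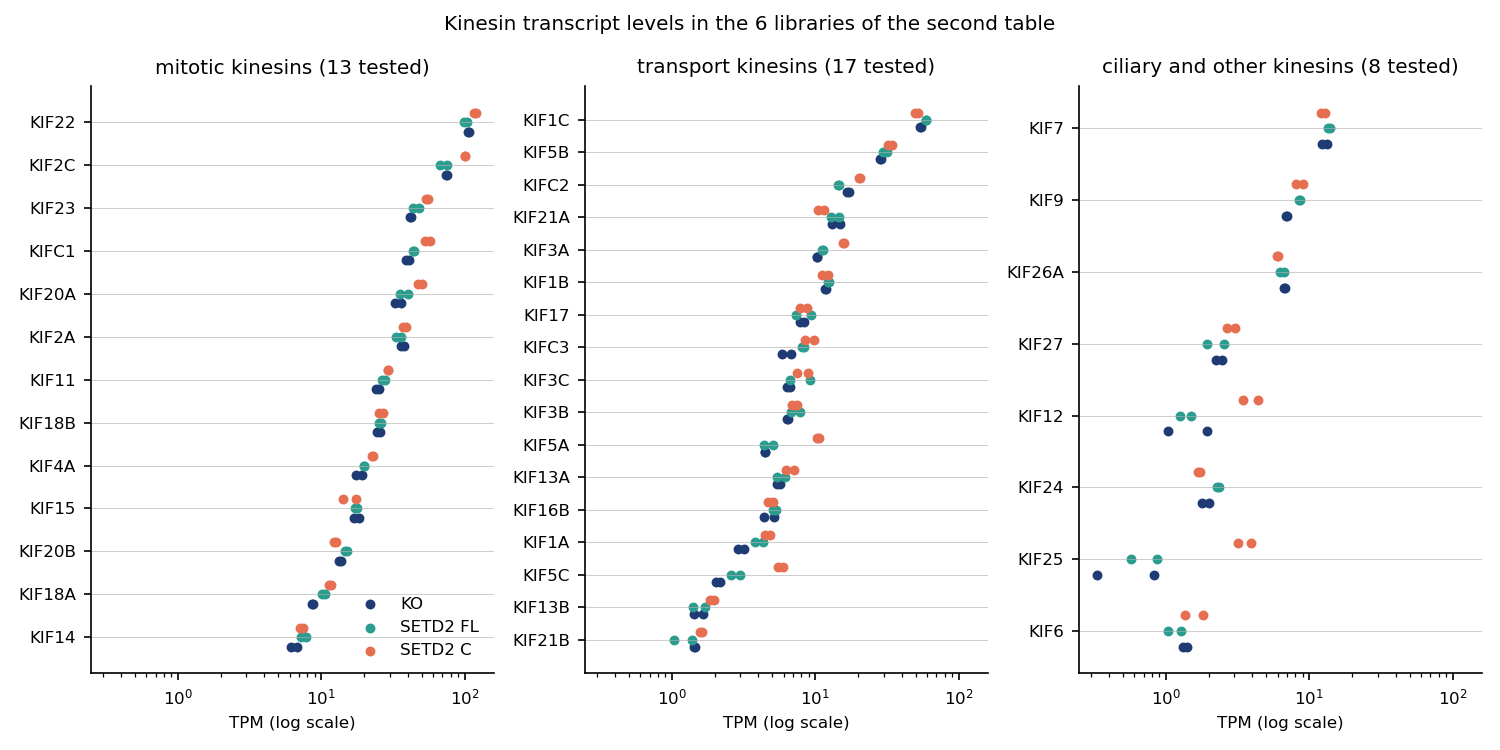
TPM (log scale) of the 38 kinesin genes that passed the filter in the second table, by role and ordered by mean level, with 1 point per library (KO, SETD2 FL and SETD2 C, 2 libraries each). KIF22 and KIF2C lie at the top of the mitotic panel, and for KIF5A, KIF5C, KIF12 and KIF25 both SETD2 C points lie to the right of the other 4.

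The comparison of SETD2 C with KO asks how kinesin transcripts differ when a segment of SETD2 that accumulates to high levels is expressed in cells labelled KO. Of 38 kinesin genes tested, 11 were higher and 4 were lower with SETD2 C when called by limma at a threshold of 0.05 on the Benjamini-Hochberg adjusted p, taken over all genes tested. Over all 15929 genes tested, 21.1% were called higher and 15.1% lower, so the share of kinesins called in either direction, 39.5%, was close to that of all genes, 36.2%. The median log2 fold change was 0.10 for the kinesins and 0.05 for all genes. Without scaling between libraries the split was 17 higher and 1 lower, with the median of all genes at 0.18. The shares of all genes called without scaling were not counted, so this split cannot be set against them. A fold change of at least 2 was reached by 4 kinesins, KIF25, KIF5C, KIF12 and KIF5A, all higher (3.75% of all genes were higher at that size and 0.314% lower).

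Among the 13 mitotic kinesins tested, KIF20A, KIFC1, KIF2C and KIF23 were higher with SETD2 C, KIF20B was lower and 8 did not pass. Those called were 38.5% of the group, against 36.2% of all genes. The median log2 fold change of the 13 was 0.10 (0.05 for all genes). The changes were small, and in bulk RNA a different share of cells in mitosis and a different amount of RNA per cell cannot be told apart.

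KIF2C, the kinesin-13 that removes faulty microtubule attachments at centromeres, had TPM of 75.7 and 74.2 in KO, 67.7 and 75.0 for SETD2 FL and 101 and 100 for SETD2 C. Both SETD2 C libraries lay above the other 4. Against KO the log2 fold change was 0.28 (SE 0.05, adjusted p = 0.00669 from limma), and against SETD2 FL it was 0.37 (SE 0.05, adjusted p = 0.00177 from limma). Its relative KIF2A, which shortens microtubules at spindle poles, had TPM of 35.9 and 37.9, 33.0 and 36.2, and 36.9 and 39.0 in the same order. The log2 fold change of KIF2A against KO was -0.11 (95% interval -0.26 to 0.04). KIF2A shares 43742 bases on the opposite strand with DIMT1, whose log2 fold change against KO was -0.29 (adjusted p = 0.0144 from limma).

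KIF20A and KIF20B, the kinesin-6 motors of cytokinesis, differed from KO in opposite directions. KIF20A, which brings the chromosomal passenger complex to the spindle midzone, had TPM of 35.97 and 32.7 in KO, 35.4 and 40.2 for SETD2 FL and 50.6 and 47.1 for SETD2 C. Its SETD2 C libraries were the highest, while those of KO and SETD2 FL overlapped. For KIF20A the log2 fold change against KO was 0.35 (SE 0.07, adjusted p = 0.00867 from limma). It was 0.29 without the second KO library (replicate 4, adjusted p = 0.0515) and 0.30 without the first SETD2 C library (adjusted p = 0.0529 from limma).

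KIF20B, a motor of late cytokinesis, had TPM of 13.8 and 13.2 in KO, 14.7 and 15.0 for SETD2 FL and 12.7 and 12.3 for SETD2 C. The SETD2 C libraries were the lowest of the 6. For KIF20B the log2 fold change against KO was -0.25 (SE 0.07, adjusted p = 0.0261 from limma), which was not past the threshold without scaling (-0.11, adjusted p = 0.303) or with any 1 of the 4 libraries left out (0.0651 to 0.121). Against SETD2 FL it was -0.37 (SE 0.07, adjusted p = 0.00531 from limma). The ratio of KIF20A to KIF20B TPM, which no scaling touches and which was chosen after the values were seen, was 2.61 and 2.47 for KO, 2.41 and 2.67 for SETD2 FL and 3.99 and 3.82 for SETD2 C.

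KIF23, the kinesin-6 motor of centralspindlin, had TPM of 42.4 and 41.7 in KO, 43.4 and 47.9 for SETD2 FL and 54.0 and 55.5 for SETD2 C. Against KO its log2 fold change was 0.23 (SE 0.06, adjusted p = 0.0164 from limma), with adjusted p from 0.0546 to 0.0866 when 1 of the 4 libraries was left out. KIFC1, the minus-end motor that clusters centrosomes, had TPM of 38.9 and 40.6, 43.8 and 44.1, and 57.5 and 52.8 in the same order. For both genes the SETD2 C libraries lay above all others. For KIFC1 the log2 fold change against KO was 0.32 (SE 0.07, adjusted p = 0.00799 from limma; 0.0507 without the first SETD2 C library).

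The other 8 mitotic kinesins did not pass the test against KO. KIF18A, which limits chromosome oscillation at metaphase, came closest, with TPM of 8.59 and 8.80 in KO, 10.6 and 10.1 for SETD2 FL and 11.3 and 11.6 for SETD2 C, and a log2 fold change of 0.24 (SE 0.08, adjusted p = 0.0501 from limma). KIF15, which can hold the spindle open in place of KIF11, had TPM of 18.4 and 17.0, 17.8 and 17.3, and 17.5 and 14.1 in that order. Its log2 fold change of -0.31 (SE 0.11, adjusted p = 0.0542 from limma) rested on SETD2 C libraries that differed from each other.

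KIF11, the plus-end motor that separates the spindle poles, had TPM of 25.1 and 24.0 in KO, 26.6 and 27.6 for SETD2 FL and 29.3 and 29.1 for SETD2 C. After scaling, its log2 fold change against KO was 0.10 (95% interval -0.04 to 0.24). KIF4A, a chromokinesin of the midzone, had TPM of 19.2 and 17.5, 19.96 and 19.98, and 22.6 and 23.1 in that order (log2 fold change 0.16, SE 0.07, adjusted p = 0.0999 from limma). KIF4B, an intronless near-copy of KIF4A, was listed at 0.01 to 0.16 TPM, and reads of the pair may be split.

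KIF14, a cytokinesis motor, had TPM of 6.75 and 6.17 in KO, 7.27 and 7.76 for SETD2 FL and 7.06 and 7.50 for SETD2 C. KIF18B, which acts on astral microtubules, had 25.8 and 24.3, 25.2 and 26.1, and 27.1 and 25.3. For KIF14, KIF18B and KIF22 the scaled SETD2 C and KO libraries overlapped, with log2 fold changes of 0.02, -0.08 and 0.00. The interval of KIF22 ran from -0.11 to 0.12.

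Of the 17 transport kinesins tested, KIF5C, KIF5A, KIF3A, KIF1A and KIFC3 were higher with SETD2 C and KIF21A and KIF1C were lower. Those called were 41.2% of the 17, close to the 36.2% of all genes. The median log2 fold change of the 17 was 0.12 (0.05 for all genes). The plot of log2 fold changes shows KIF5A and KIF5C apart from the rest of the group.

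**Figure D2:**
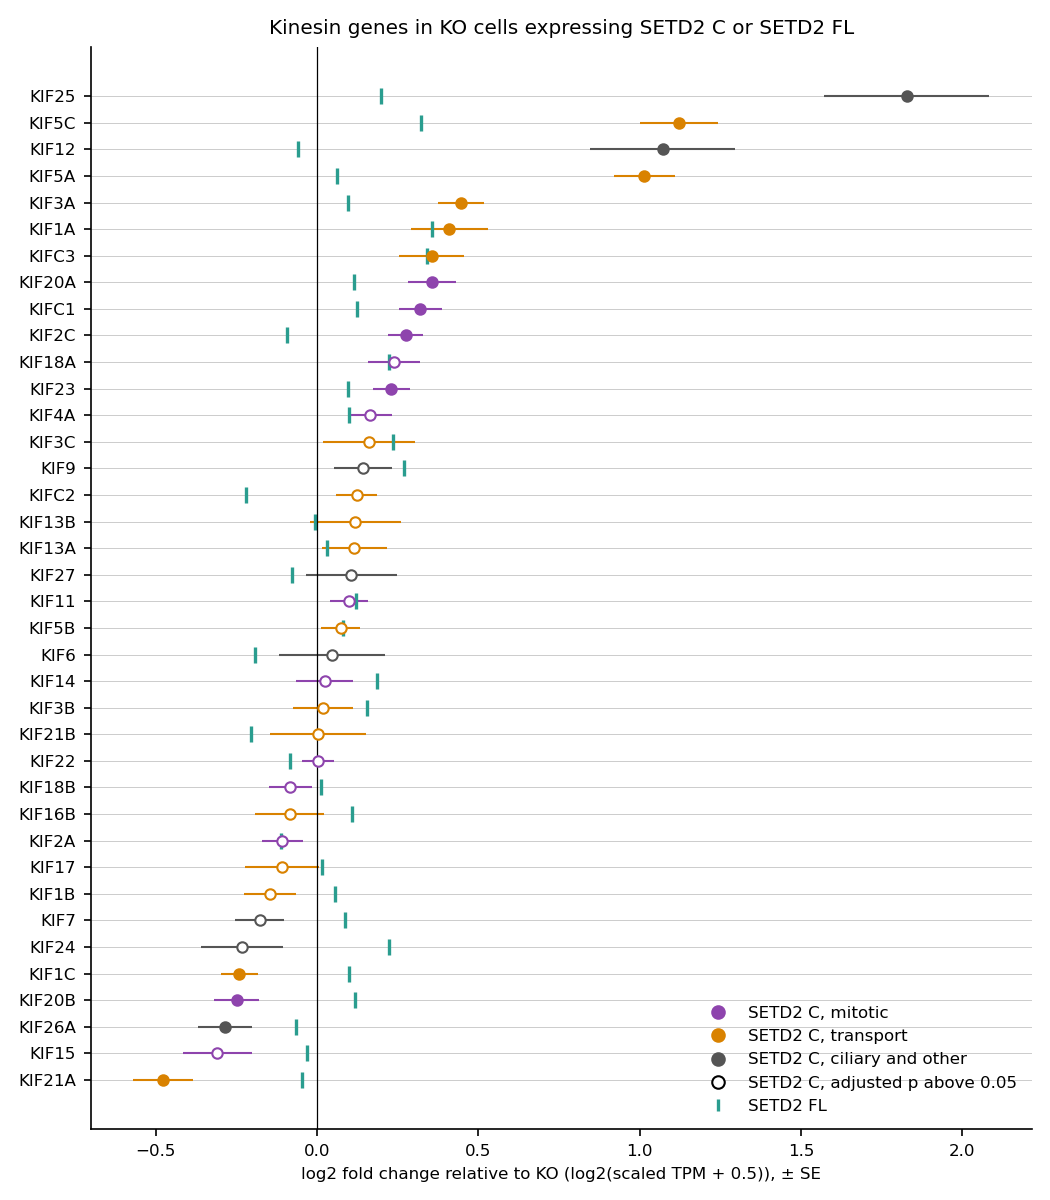
Log2 fold change against KO (x axis, log2(scaled TPM + 0.5), bars are ± SE) of the 38 kinesin genes tested, with circles for SETD2 C coloured by role (filled at an adjusted p of at most 0.05, open otherwise) and vertical ticks for SETD2 FL. The SETD2 C values run from -0.48 for KIF21A to 1.83 for KIF25, and no SETD2 FL value passed the test.

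KIF5A, a kinesin-1 heavy chain enriched in neurons (ENSG00000155980, chr12:57546026-57586633 of GRCh38, plus strand, 29 exons), had TPM of 4.44 and 4.44 in KO, 4.38 and 5.08 for SETD2 FL and 10.3 and 10.7 for SETD2 C. The SETD2 C libraries stood well above the other 4, which overlapped. Against KO its log2 fold change was 1.01 (SE 0.09, adjusted p = 0.000341 from limma) and against SETD2 FL 0.95 (SE 0.09, adjusted p = 0.000383 from limma). The gene shares 1199 bases on the opposite strand with DCTN2, whose log2 fold change was -0.21.

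KIF5C, the other heavy chain enriched in neurons (ENSG00000168280, chr2:148875227-149026759 of GRCh38, plus strand, 26 exons), had TPM of 2.17 and 2.03 in KO, 2.98 and 2.59 for SETD2 FL and 5.48 and 5.91 for SETD2 C. Its 3 groups did not overlap, with KO the lowest. Its log2 fold change was 1.12 against KO (SE 0.12, adjusted p = 0.000632 from limma) and 0.80 against SETD2 FL (SE 0.12, adjusted p = 0.00202 from limma).

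KIF5B, the heavy chain used in most tissues, was the most abundant of the 3 and is given for comparison, chosen after its values were seen. Its TPM was 28.4 and 28.9 in KO, 29.9 and 31.6 for SETD2 FL and 32.3 and 34.5 for SETD2 C, a log2 fold change against KO of 0.07 (95% interval -0.07 to 0.21). Expressed as a share of the 3 heavy chains within a library, KIF5A took 12.7 and 12.6% for KO, 11.8 and 12.9% for SETD2 FL and 21.4 and 20.9% for SETD2 C. KIF5C took 6.20 and 5.75%, 8.01 and 6.59%, and 11.4 and 11.6% in the same order. These shares do not depend on scaling. With 2 libraries against 2, an exact permutation test cannot go below p = 0.333, so none was used for them.

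**Figure D3:**
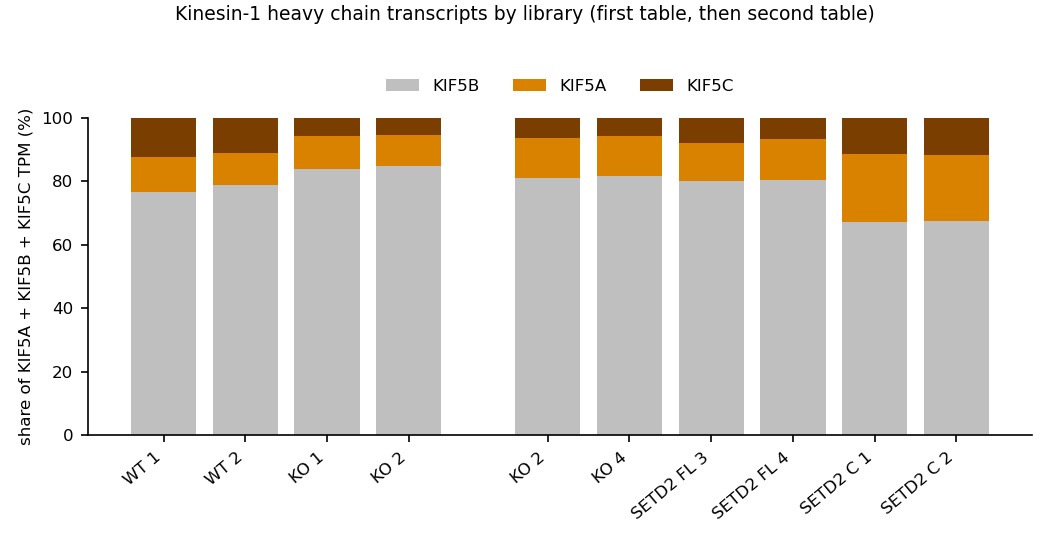
Share (%) of KIF5B, KIF5A and KIF5C in their summed TPM for each library, first table on the left and second on the right, each bar being 1 library. KIF5B takes 67.2 and 67.5% with SETD2 C and 80.2 to 81.7% in the other libraries of the second table.

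NEFM and NEFL, which encode neurofilament chains of neurons and are also expressed in HEK293T cells, were higher with SETD2 C, like KIF5A and KIF5C. NEFL TPM was 63.6 and 61.3 in KO, 55.6 and 61.3 for SETD2 FL and 156 and 168 for SETD2 C. The log2 fold change against KO was 1.22 for NEFL and 1.203 for NEFM. Of the other HEK293T markers, the keratin KRT8 had TPM of 28.2 and 29.3 in KO and 98.1 and 97.9 for SETD2 C (log2 fold change 1.61), KRT18 had a log2 fold change of 0.21, and VIM had 0.06 and was not called. In all, 4 of the 5 markers were higher with SETD2 C, where 21.1% of all genes were higher. Their part in the kinesin result was not tested. In KO against WT the direction was not shared. There NEFL was higher (0.44, adjusted p = 0.0272 from limma), NEFM was at 0.07 and not called, and KIF5C was lower (-0.83).

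KIF1A, a carrier of synaptic vesicle precursors, had TPM of 3.20 and 2.87 in KO, 4.34 and 3.82 for SETD2 FL and 4.83 and 4.45 for SETD2 C. The log2 fold change of KIF1A was 0.41 with SETD2 C (SE 0.12, adjusted p = 0.0313 from limma) and 0.36 with SETD2 FL (SE 0.12, adjusted p = 0.233). The former was not past the threshold with any 1 of the 4 libraries left out, with adjusted p from 0.0595 to 0.135, or with quantile normalization (0.22, adjusted p = 0.170). SETD2 C and SETD2 FL were not separated for KIF1A, with a difference of 0.05 (95% interval -0.22 to 0.33).

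KIF3A, the kinesin-2 subunit that drives transport into cilia, had TPM of 10.3 and 10.2 in KO, 11.2 and 11.1 for SETD2 FL and 15.7 and 15.7 for SETD2 C. The log2 fold change of KIF3A against KO was 0.45 (SE 0.07, adjusted p = 0.00304 from limma), and its partner subunit KIF3B had 0.02 (95% interval -0.20 to 0.23). The ratio of KIF3A to KIF3B TPM, chosen after the values were seen, was 2.11 and 2.29 with SETD2 C and 1.43 to 1.67 in the other 4 libraries. In KO libraries of the first table KIF3A TPM was 29.7 and 35.7, and since the tables were normalized separately no difference between them was tested.

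KIFC3, a minus-end motor of cell junctions, had TPM of 6.74 and 5.88 in KO, 8.06 and 8.38 for SETD2 FL and 8.45 and 9.74 for SETD2 C. Both transfected groups lay above KO. The log2 fold change was 0.36 with SETD2 C (SE 0.10, adjusted p = 0.0285 from limma) and 0.34 with SETD2 FL (SE 0.10, adjusted p = 0.194). The SETD2 C value was not past the threshold without the second KO library (0.27, adjusted p = 0.143), without the second SETD2 C library (0.26, adjusted p = 0.159) or with quantile normalization (0.28, adjusted p = 0.0735 from limma).

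KIF21A, which restrains microtubule growth at the cell cortex, had TPM of 14.9 and 13.02 in KO, 12.8 and 14.6 for SETD2 FL and 10.5 and 11.4 for SETD2 C. Its SETD2 C libraries were the lowest, and the log2 fold change of -0.48 (SE 0.09, adjusted p = 0.00637 from limma) passed in each of the 14 settings that kept the threshold and asked for no larger change. KIF1C, a vesicle motor and the most abundant transport kinesin, had TPM of 54.0 and 54.4, 58.9 and 58.9, and 49.3 and 52.3 in that order. For KIF1C the log2 fold change was -0.24 (SE 0.06, adjusted p = 0.0135 from limma) and was not past the threshold without scaling (-0.09, adjusted p = 0.261), without the second KO library (-0.23, adjusted p = 0.0630) or without the first SETD2 C library (-0.20, adjusted p = 0.0798 from limma).

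The other 10 transport kinesins did not pass against KO, with log2 fold changes from -0.15 for KIF1B to 0.16 for KIF3C. Among them KIFC2, a minus-end motor described in neurons, had TPM of 17.1 and 16.6 in KO, 14.5 and 14.7 for SETD2 FL and 20.2 and 20.5 for SETD2 C. Its log2 fold change was 0.12 against KO (95% interval -0.03 to 0.27) and 0.34 against SETD2 FL (SE 0.06, adjusted p = 0.00508 from limma).

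Among the 8 ciliary and other kinesins tested, KIF25 and KIF12 were higher with SETD2 C and KIF26A was lower. These calls made up 37.5% of the group, against 36.2% of all genes. KIF25, a minus-end motor implicated in centrosome positioning, had TPM of 0.33 and 0.83 in KO, 0.87 and 0.57 for SETD2 FL and 3.92 and 3.16 for SETD2 C. Only in the SETD2 C libraries did it exceed 1 TPM. For KIF25 the log2 fold change was 1.83 (SE 0.26, adjusted p = 0.00174 from limma), on a scale that understates changes of low values. Its antisense gene KIF25-AS1 did not exceed 0.03 TPM in any library.

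KIF12, a motor expressed in kidney and bile duct, had TPM of 1.03 and 1.92 in KO, 1.25 and 1.49 for SETD2 FL and 3.47 and 4.38 for SETD2 C. For KIF12 the log2 fold change was 1.07 (SE 0.22, adjusted p = 0.00876 from limma), and 0.92 without the second SETD2 C library (adjusted p = 0.0604). KIF26A, an atypical kinesin without motor activity, had TPM of 6.61 and 6.72 in KO, 6.26 and 6.62 for SETD2 FL and 5.93 and 6.0 for SETD2 C. Its log2 fold change was -0.29 (SE 0.08, adjusted p = 0.0328 from limma). It was not past the threshold without scaling (-0.15, adjusted p = 0.238) or with any 1 of the 4 libraries left out, with adjusted p from 0.0906 to 0.123.

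**Figure D4:**
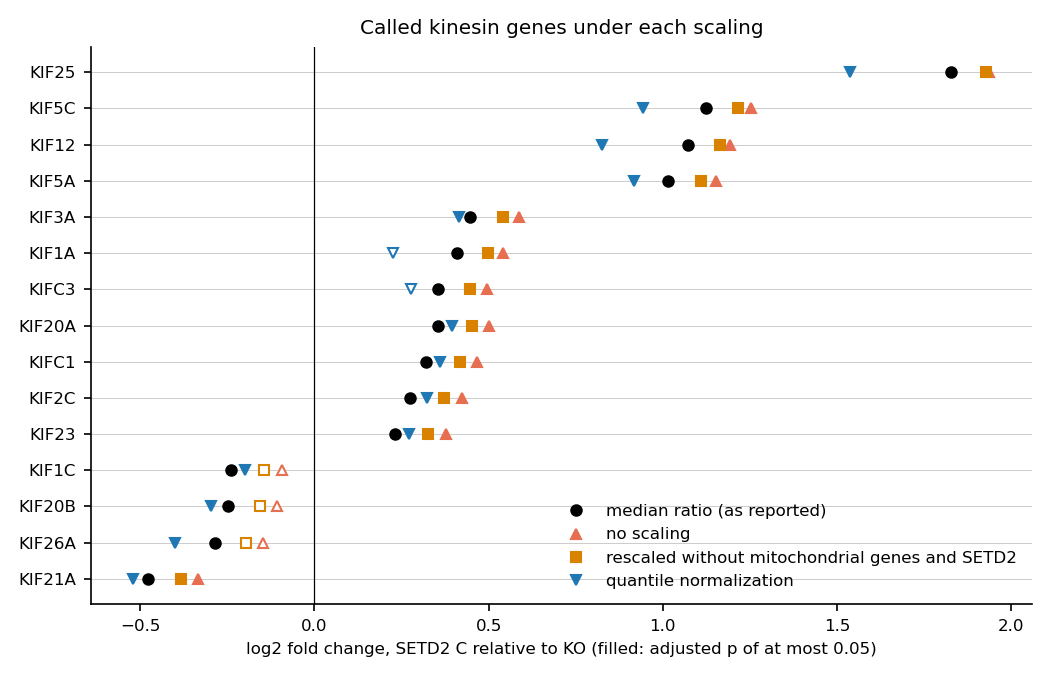
Log2 fold change (x axis) of the 15 kinesin genes called between SETD2 C and KO under 4 ways of scaling the libraries, with filled symbols at an adjusted p of at most 0.05. No gene changes sign, and KIF1C, KIF20B and KIF26A are open symbols without scaling and when TPM is rescaled without mitochondrial genes and SETD2.

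The comparison of SETD2 FL with KO asks the same of the full-length protein. Of 38 kinesin genes, 0 were called higher and 0 lower by limma on the same threshold, where 0.176% and 0.0314% of all genes were called. With a doubling also required the count was also 0 (0.0753% of all genes higher and 0.00628% lower). At an unadjusted p under 0.05 there were 6 kinesins, against 15.9% of all genes. These were KIF18A, KIFC3, KIF1A, KIF5C and KIF9, with positive values, and KIFC2, with a negative value. The log2 fold change of KIF5C was 0.32 (95% interval 0.04 to 0.60) and that of KIFC2 was -0.22 (95% interval -0.37 to -0.07). All 38 values lay between -0.22 and 0.36, with a median of 0.09 (0.01 for all genes).

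The comparison of SETD2 C with SETD2 FL sets both transfected groups against each other, in which SETD2 TPM itself differed, and it shares the SETD2 C libraries with the comparison against KO. Here 9 of 38 kinesins were higher with SETD2 C and 5 were lower, against 21.4% and 16.8% of all genes. Without scaling the split was 11 and 3, for which the shares of all genes were not counted. At a fold change of at least 2, KIF25 and KIF12 were higher and 0 were lower (3.36% and 0.421% of all genes). Those higher were KIF25, KIF12, KIF5A, KIF5C, KIF2C, KIF3A, KIFC2, KIF20A and KIFC1. KIFC1 (log2 fold change 0.20, adjusted p = 0.0479 from limma) was not past the threshold in 7 of 14 alternatives. Among them were eBayes without trend, all gene types, only the 4 libraries compared, and leaving out the first SETD2 C library or either SETD2 FL library. KIF20A (0.24, adjusted p = 0.0357 from limma) was not past it in 5 of 14. Among these were eBayes without trend and leaving out either SETD2 C library or the first SETD2 FL library. Those lower were KIF24, KIF21A, KIF20B, KIF1C and KIF7. The median log2 fold change was 0.02 for the kinesins and 0.04 for all genes.

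KIF24, which keeps centrioles from growing cilia, had TPM of 1.99 and 1.78 in KO, 2.34 and 2.28 for SETD2 FL and 1.72 and 1.67 for SETD2 C. For KIF24 the log2 fold change between SETD2 C and SETD2 FL was -0.46 (SE 0.13, adjusted p = 0.0247 from limma). KIF7, the ciliary kinesin of Hedgehog signalling, had TPM of 13.3 and 12.2 in KO, 13.5 and 14.03 for SETD2 FL and 12.1 and 12.8 for SETD2 C, and a log2 fold change of -0.27 (SE 0.08, adjusted p = 0.0263 from limma). Neither passed with any 1 of the 4 libraries left out or without scaling, and KIF7 overlaps TICRR on the opposite strand by 22268 bases. The strand setting of the libraries is not given in the sources used here.

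The comparison of KO with WT in the first table asks how kinesin transcripts differ between cells labelled KO and those labelled WT. Of 37 kinesins tested, 0 were higher and 3 were lower in KO, against 1.32% and 3.17% of all 14741 genes tested. At a fold change of at least 2 there were 0 kinesins in either direction (0.339% of all genes higher and 1.02% lower). All 3 were transport kinesins, and 0 of the 13 mitotic kinesins passed the adjusted threshold or had an unadjusted p under 0.05 in limma, which 24.9% of all genes had. The log2 fold changes of the mitotic kinesins lay between -0.19 and 0.20. Mitochondrially encoded genes took 23.2% of TPM in the first WT library and 11.99 to 14.1% in the other 3, and the part of this in the result was not tested.

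KIF20A TPM was 38.3 and 41.9 in WT and 46.6 and 46.2 in KO, and KIF20B TPM was 17.9 and 20.5 against 22.7 and 23.4. KIF23 TPM was 46.3 and 56.0 in WT and 59.8 and 57.5 in KO, and KIFC1 TPM was 35.8 and 44.6 against 40.9 and 40.5. After scaling the log2 fold changes of these 4 cytokinesis and centrosome motors were 0.08, 0.13, 0.07 and -0.10, and none passed.

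The microtubule depolymerases also did not pass, with KIF2A TPM of 39.5 and 51.02 in WT and 53.3 and 60.1 in KO, and KIF2C TPM of 47.1 and 58.2 against 62.4 and 64.3. KIF18A TPM was 8.33 and 9.86 in WT and 8.47 and 8.78 in KO, and KIF18B TPM was 21.98 and 25.4 against 25.9 and 25.4. Among these, KIF2A had the highest log2 fold change of the mitotic group (95% interval -0.02 to 0.42) and KIF18A the lowest (95% interval -0.41 to 0.02).

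KIF11 TPM was 30.6 and 37.7 in WT and 37.3 and 39.0 in KO, and that of its backup KIF15 was 19.5 and 20.5 against 20.8 and 19.9. The chromokinesins KIF4A and KIF22 had TPM of 21.5 and 26.7 and of 90.7 and 104 in WT, and of 27.8 and 27.0 and of 98.9 and 97.7 in KO. KIF14 TPM was 7.32 and 9.80 in WT and 10.7 and 10.1 in KO. In TPM the first WT library was the lowest of the 4 for each of the 13 mitotic kinesins, and scaling reduced that gap.

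KIF5C TPM was 5.24 and 5.77 in WT and 3.18 and 3.12 in KO. The log2 fold change was -0.83 (SE 0.11, adjusted p = 0.0138 from limma), and its share of the 3 kinesin-1 heavy chains was 12.3 and 11.1% in WT and 5.85 and 5.52% in KO. KIF5A, in contrast, had TPM of 4.71 and 5.24 in WT and 5.66 and 5.39 in KO, a log2 fold change of 0.02 (95% interval -0.23 to 0.27).

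KIF1A TPM was 6.16 and 7.11 in WT and 4.39 and 3.80 in KO, with a log2 fold change of -0.75 (SE 0.11, adjusted p = 0.0187 from limma). KIFC2 TPM was 11.5 and 11.6 in WT and 8.69 and 7.31 in KO, with a log2 fold change of -0.63 (SE 0.12, adjusted p = 0.0406 from limma). For each of the 3 genes both KO libraries lay below both WT libraries, as for 10 of the 37 kinesins and 29.4% of all genes. None of the 3 passed without the first KO library, with adjusted p of 0.0644 for KIF5C, 0.0521 for KIF1A and 0.0706 for KIFC2, nor without the second, with 0.0828, 0.119 and 0.206 (limma). KIFC2 also did not pass without the first WT library (-0.53). It did not pass in 7 of 14 alternatives, among them no scaling, eBayes without trend and all gene types.

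**Figure D5:**
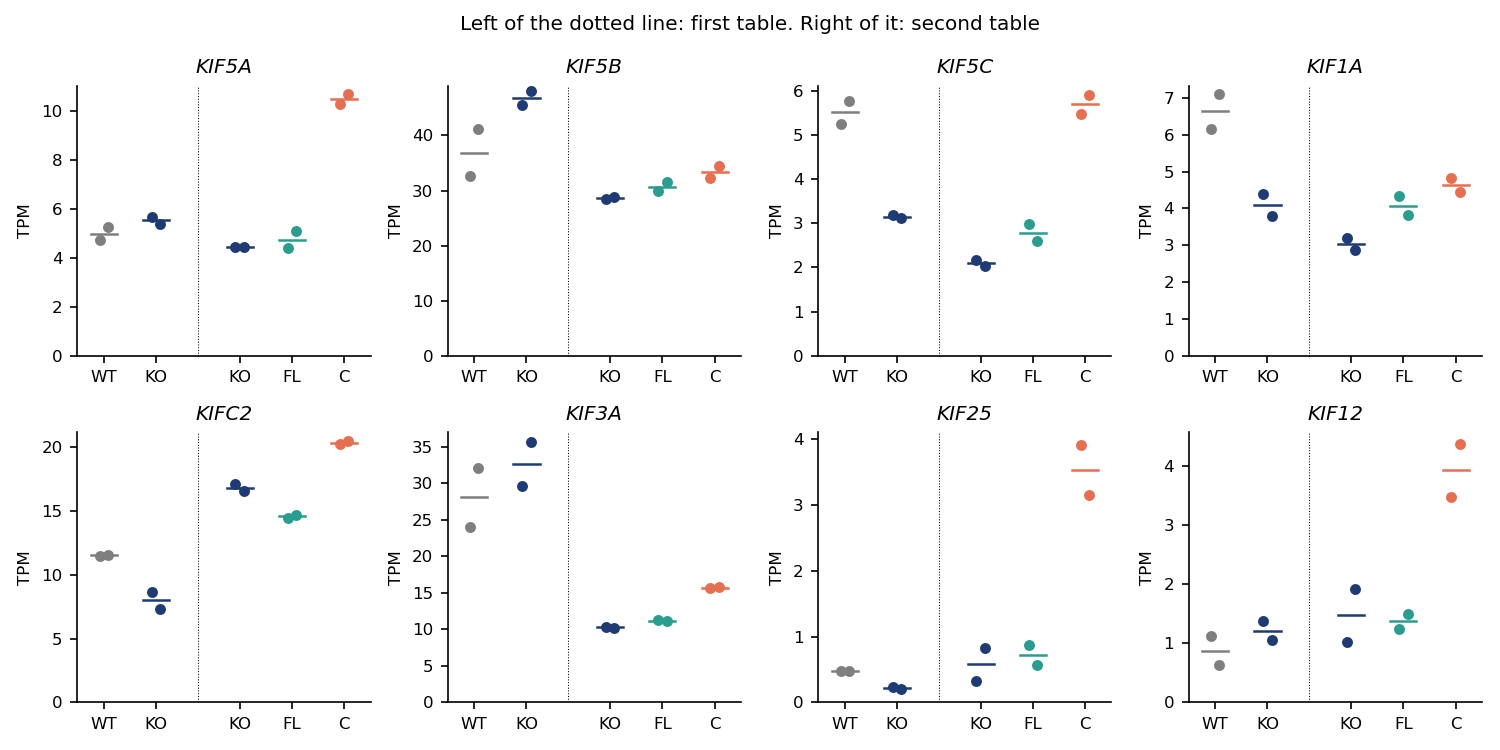
TPM of 8 kinesin genes in each of the 10 libraries (points) with the mean of each group of 2 (lines), first table left of the dotted line and second table right of it. KIF5C and KIF1A are lower in KO than in WT on the left, and KIF5A, KIF5C, KIF25 and KIF12 are highest with SETD2 C on the right.

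The other kinesins that were called in the second table were not called here. KIF1C TPM was 43.2 and 61.7 in WT and 64.9 and 67.0 in KO, and KIF21A TPM was 10.5 and 13.5 against 14.6 and 14.5. KIF3A TPM was 24.1 and 32.1 in WT and 29.7 and 35.7 in KO, and KIFC3 TPM was 3.02 and 3.23 in WT and 5.46 and 2.98 in KO, with KO libraries far apart. KIF12 TPM was 1.12 and 0.63 in WT and 1.37 and 1.06 in KO, and KIF24 TPM was 2.44 and 2.88 against 2.79 and 2.81. KIF25, which was not tested here, had 0.48 in both WT libraries and 0.23 and 0.2 in KO. KIF7 TPM was 13.3 and 15.9 in WT and 17.1 and 15.5 in KO, and KIF26A TPM was 4.92 and 6.06 against 6.95 and 6.54. In log2 terms, the 34 kinesins not called lay between -0.21 for KIF21B and 0.38 for KIF27 and KIF16B.

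For KIF5C, KIF1A and KIFC2 the values of the 2 tables can be set side by side. KIF5C was -0.83 in KO against WT, 0.32 in SETD2 FL against KO and 1.12 in SETD2 C against KO, on the log2 scale. KIF1A was -0.75, 0.36 and 0.41 in the same order, and KIFC2 was -0.63, -0.22 and 0.12. The last pair of values shares its KO libraries, while the first comes from other libraries.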

How the data were processed

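Per the labels and methods, the authors aligned reads with STAR (2.6.1c) to hg38 with Ensembl 96 genes, estimated TPM with RSEM (1.3.0) and deposited 2 tables of TPM per gene. Gene types and positions came from GENCODE 44. Within each table, every library was divided by its median ratio to the geometric mean, computed from genes reaching 1 TPM throughout. Testing was limited to protein-coding and lncRNA genes that reached 0.5 TPM in 2 or more libraries, on the scale log2(scaled TPM + 0.5). limma 3.58.1 (R 4.3.3) was used, eBayes with trend, with all libraries of a table in one fit. A gene was called when its p, adjusted by Benjamini-Hochberg, did not exceed 0.05. TPM gives no depth, so no counting error was derived. On simulated data for SETD2 C against KO (15929 genes), 6, 21, 43 and 48 of 50 genes changed by 0.3, 0.6, 1.5 and 3 on the log2 scale were recovered, with 7 false calls. For KO against WT (14741 genes), 0, 6, 39 and 44 of 50 were recovered, with 4 false calls. Only 50 genes of each size were changed in a simulation, while 36.2% of all genes were called for SETD2 C against KO. Recovery and false calls in that comparison can therefore differ from the simulated ones.

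Values in every library are given for each mitotic kinesin tested and each other kinesin called in any comparison, and up to 3 partners per list are named by size of change among those called. The genes, lists and tests were chosen with earlier results of these data known. Alternatives were pseudocounts of 0.1 and 1, other filters and gene types, other scalings, eBayes without trend, only the 4 libraries compared, a fold change of at least 2, a replicate block and each library left out. The 14 ChIP-seq samples were not analysed here.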

Additional observations from a re-analysis of the deposited data

How the results depend on the processing

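The called kinesins of each comparison kept their direction in every alternative. Apart from the requirement of a doubling, the alternatives that tested a gene left 6 of 15 calls in place for SETD2 C against KO, 9 of 14 for SETD2 C against SETD2 FL and 0 of 3 for KO against WT, and SETD2 FL against KO gave 0 throughout. KIF25 was not tested where 1 TPM was required in every library. For SETD2 C against KO, the counts of 11 higher and 4 lower became 17 and 1 without scaling and 4 and 0 once a doubling was required, and rescaling without mitochondrial genes and SETD2 left 1 lower. Leaving out 1 library gave 7 to 9 higher and 1 to 2 lower, with 7 higher without KO replicate 4, SETD2 C replicate 1 or SETD2 C replicate 2. For SETD2 C against SETD2 FL, the counts of 9 and 5 became 2 and 0 once a doubling was required, with 3 lower without scaling and 8 lower with quantile normalization. Leaving out 1 library gave 7 to 8 higher and 2 to 4 lower, with 3 or fewer lower without SETD2 C replicate 2 or either SETD2 FL library. For KO against WT, the 3 lower became 0 without a filter on low TPM and 0 once a doubling was required. Leaving out 1 library gave 0 to 1 higher and 0 to 3 lower, with 0 lower without either KO library and 1 higher without the second WT library. A lone library of a group was assumed to vary like the other groups. Over all genes, the unscaled median log2 difference was 0.18 for SETD2 C against KO, 0.16 for SETD2 C against SETD2 FL and 0.11 for KO against WT. Apart from the requirement of a doubling, shares of all genes called were not counted under the alternatives. Whether the kinesin counts moved more than those of all genes is therefore not known. The cause of these changes was not tested.

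In the first table, WT and KO share the replicate numbers 1 and 2. Deviations of same-numbered libraries correlated at 0.147 across 14741 genes, which are not independent, and the labels state no shared day or batch. With the number as a block, 0 kinesins were higher and 3 lower, as without it. In the second table no paired analysis was possible because the groups compared share fewer than 2 numbers.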

Other observations

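Proteins that work with kinesins were counted in 4 lists written by hand. The spindle partners include CENPE, a mitotic kinesin whose symbol falls outside the rule used above. Of 16 spindle partners, 6 were higher with SETD2 C than in KO and 0 were lower, with a median log2 fold change of 0.19 (21.1% of all genes were higher and 15.1% lower). HMMR, a spindle pole protein, had TPM of 46.7 and 52.4 in KO and 78.8 and 79.5 with SETD2 C, and its log2 fold change was 0.53 (SE 0.07, Benjamini-Hochberg adjusted p = 0.00122 by limma). RACGAP1, which forms centralspindlin with KIF23, had 48.5 and 48.8 in KO and 72.5 and 74.6 with SETD2 C (log2 fold change 0.44), and NUSAP1, a microtubule bundler, had a log2 fold change of 0.41. With SETD2 FL against KO, 0 of the 16 were called, where 0.176% of all genes were higher and 0.0314% lower. With KO against WT, 0 were called as well, where 1.32% of all genes were higher and 3.17% lower.

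Of 10 regulators of G2 and M phase genes, 1 was higher and 3 were lower with SETD2 C than in KO, against the same shares of all genes, 21.1% and 15.1%. E2F4, a DNA-binding subunit of the DREAM repressor complex, had TPM of 46.9 and 41.5 in KO and 34.8 and 32.1 with SETD2 C (log2 fold change -0.54, SE 0.07, adjusted p = 0.00155 from limma). LIN37, a further DREAM subunit, had -0.32, while RBL2, a pocket protein of the complex, had 0.34. Among 16 listed cargo adaptors 1 was higher (SPAG9, 0.38) and 3 were lower, including the kinesin light chain KLC2 (-0.30) and RHOT1, which links kinesin-1 to mitochondria (-0.27). Among 19 genes of dynein, dynactin and their adaptors 3 were higher and 2 lower, with BICD1 at 0.49, NDE1 at 0.32 and DYNC1H1, the heavy chain of the minus-end motor, at -0.43. Those shares of all genes apply to these 2 lists as well.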
